A study of Homo sapiens with 8 samples.

Results

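SW480 cells 72 h after transfection with small interfering RNA (siRNA) against TCF7L2 were compared with SW480 cells given a negative-control siRNA and labelled 0 h, with 2 libraries in each group and so 4 of the 8 libraries of the series. SW480 is an established human colorectal cancer line. The siRNA was delivered with the lipid reagent RNAiMAX, and total RNA was sequenced after ribosomal RNA removal. The other 4 libraries, from cells given TCF7L2 siRNA for 24 or 48 h, shared the estimate of spread and are given as means beside some results. No control siRNA library at 72 h is among the samples, so the siRNA and the time since transfection cannot be told apart. The labels' treatment protocol speaks of 3 replicates, 2 libraries per group are listed, and whether they were separate cultures is not said. The p-values therefore speak for these libraries alone, whose spread may be technical. Genes were kept where the deposited value was 1 TPM or more in at least 2 libraries, which held for 11894 of 18656 listed genes. TPM is a library share normalised for transcript length.

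TCF7L2 encodes TCF4, a DNA-binding protein of the TCF/LEF family. When Wnt ligands act on a cell, or when mutated APC no longer allows beta-catenin to be destroyed, as is known for SW480, beta-catenin binds TCF/LEF proteins and switches on genes such as MYC, AXIN2 and LGR5. Without beta-catenin the same proteins recruit Groucho/TLE corepressors. In the intestinal crypt this pathway maintains stem and progenitor cells, and TCF7L2 is the family member with the main role there.

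The deposited TPM of the listed genes summed to 464050.8 and 465001.4 in the control libraries and to 464493.2 and 352455.7 in the 72 h libraries. To put libraries on 1 scale, each was divided by the median of its gene-wise ratios to the geometric mean over libraries, with factors of 1.0592 and 1.0685 at 0 h and 1.0361 and 0.8045 at 72 h. All levels below are TPM scaled this way, library 1 before library 2, unless called deposited. Pearson's r between replicate libraries, across kept genes on log2(deposited TPM + 1), was 0.9959 at 0 h and 0.992 at 72 h. On log2(scaled TPM + 1), the 2 control libraries were 2-fold or more apart in 9 genes and the 2 at 72 h in 20. That scale understates how far apart low genes lie. Colorectal epithelial markers were abundant, their 10 genes summing to 3068 and 3021 TPM at 0 h and 4087 and 3917 at 72 h, with the keratins KRT8, KRT18 and KRT19 holding most of it. All 5 endothelial markers were below 1 TPM in every library, and 6 of 8 leukocyte markers were.

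**Figure D1:**
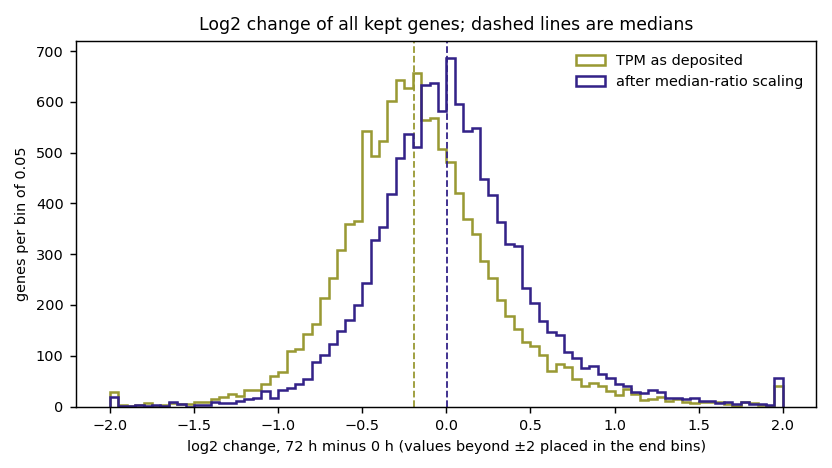
Number of kept genes (y axis, bins of 0.05) by log2 change from 0 h to 72 h (x axis), for deposited and for scaled TPM. The dashed median lies at -0.193 as deposited and at 0.003 after scaling, so scaling moved the whole distribution to the right.

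At 72 h, 6179 of the 11894 kept genes differed from the control after scaling (limma with Benjamini-Hochberg adjustment, adjusted p under 0.05), which is 52.0%. Of these, 3064 (25.8%) were higher and 3115 (26.2%) lower. The scaling decided much of this split, since TPM as deposited gave 4968 called genes (41.8%), 1253 higher (10.5%) and 3715 lower (31.2%), with the median of all genes at -0.193 on the log2 scale. Both fits called 4328 genes (36.4%) the same way, 1242 higher (10.4%) and 3086 lower (25.9%), and no gene was called with opposite signs. The second 72 h library weighed on this: as deposited and without it, 2444 genes were higher and 3028 lower. Changes reached 2-fold in 541 of the called genes, 380 higher and 161 lower. These are 4.55%, 3.19% and 1.35% of all kept genes. A 2-fold change is measured on log2(scaled TPM + 1), here and below. Log2 changes are given ± SE from the fit, on log2(scaled TPM + 1), which understates the change of low genes. Below, "rose" and "fell" mean called after scaling, and each gene list is given with its calls on the deposited values too. Of the genes named here and in the closing sections, KRT8, KRT18, CTNNB1, BCL9L, ZNRF3, APCDD1, CALR, HSPA5, ANLN, HNF4A, KLF5, CDH1, LAMA3, TFDP2, EBNA1BP2, MRPS2, HK1 and SMC1A rose after scaling and had no call as deposited. Where limma called 0 members of a list in a direction, 0 had an unadjusted p under 0.05 either, except 1 endoplasmic reticulum chaperone and 1 gene of the G1 cyclin list, both higher as deposited. The shares of all kept genes higher and lower, 25.8% and 26.2% after scaling and 10.5% and 31.2% as deposited, are the background for every list count that follows, and a list near them is only described. Of the genes named, AXIN2, RNF43, ASNS, BMI1, CALCB, CD68, CDH11, CEACAM5, CLDN7, COX6B2, MEF2B, MYO1A, NDUFA9, SLC9A3 and TGFB2 share 100 or more exon bases with another gene on the same strand in GENCODE 29, and their values are uncertain for that reason.

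TCF7L2 itself fell but remained present. It measured 6.48 and 6.99 at 0 h and 3.93 and 4.39 at 72 h, and 6.86 and 7.47 at 0 h and 4.07 and 3.53 at 72 h as deposited. The 72 h libraries lay below both controls, with a log2 change of -0.58 ± 0.11 (limma's adjusted p = 0.00197). Its means between these times were 5.46 at 24 h and 4.25 at 48 h. LEF1, a second TCF/LEF gene, rose from 18.97 and 13.7 to 54.2 and 62.6, a change of 1.79 ± 0.14, and its 48 h mean was 29.8. TCF7 had 8.298 and 7.95 at 0 h and 6.97 and 9.32 at 72 h, values that overlap, with no call (-0.01 ± 0.13, adjusted p = 0.965). LEF1 therefore had the highest level of the 3 at both times, while TCF7L2 and TCF7 lay close together at 0 h.

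CTNNB1, which encodes beta-catenin, was high throughout at 500.1 and 509 at 0 h and 569.8 and 542 at 72 h, and its small rise (0.14 ± 0.04) became -0.08 without a call as deposited. It also lost the call without the first 72 h library (0.10), the first control library (0.12) or the second (0.15). The beta-catenin adaptors BCL9 and BCL9L rose, by 0.78 and 0.51, but lost the call without the second 72 h library (0.52 and 0.27, limma's adjusted p = 0.0588 and 0.143), and BCL9L also without the first control library (0.45, 0.0986). The corepressors CTBP1 and CTBP2 fell (-0.35 and -0.69). TLE3, a Groucho corepressor, had 93.4 and 93.9 at 0 h and 93.9 and 103 at 72 h and no call. Among 11 kept family members and cofactors, 4 rose and 3 fell (2 and 4 as deposited), against 25.8% and 26.2% of all genes. Of 15 genes of the destruction complex and Dishevelled, which control beta-catenin stability, 2 rose and 6 fell (1 and 7 as deposited). The 4 risers of the first list became 2 without the second 72 h or the first control library, and the 2 of the second list ranged from 1 to 4 over the 4 fits that each left out 1 library.

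Established Wnt targets split at 72 h. Of 36 kept target and feedback genes, 12 rose and 15 fell (8 and 16 as deposited), with a median log2 change of -0.19 against 0.003 over all genes. The share higher, and the share lower, can be read against the 25.8% and 26.2% of all genes. NOTUM, a secreted enzyme that inactivates Wnt ligands, fell from 349 and 338 to 168 and 168 (-1.02 ± 0.04). NKD2, an inhibitor acting through Dishevelled, fell from 51.9 and 53.8 to 25.7 and 24.8 (-1.04 ± 0.07), while its relative NKD1 had no call at 169 and 165 at 0 h and 153 and 158 at 72 h. The proliferation genes MYC and CCND1 fell, MYC from 417 and 412 to 246 and 261 (-0.71 ± 0.04) and CCND1 from 139.7 and 138 to 83.7 and 86.2 (-0.70 ± 0.06). The stem cell factor ASCL2 fell from 38.1 and 37.5 to 24.7 and 26.2, whereas LGR5 was near 1 TPM at both times (0.821 and 0.955 at 0 h and 0.492 and 0.796 at 72 h) and had no call. The drop of AXIN2 was smaller, from 207 and 199.6 to 172 and 176 (-0.23 ± 0.05). For each of these genes that fell, both 72 h libraries lay below both controls. After scaling, the groups did not overlap in 6178 of the 6179 called genes, nor in 8972 of the 11894 kept genes.

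Other genes of the same list rose. CD44, a hyaluronan receptor and crypt marker, increased from 12.1 and 11.3 to 109.9 and 145 (3.33 ± 0.13), and its mean was 12.9 at 24 h and 46.7 at 48 h. The growth factor FGF20 went from 22.3 and 21.3 to 81.8 and 84.5 (1.88 ± 0.08). DKK1, a secreted Wnt antagonist, rose from 14.6 and 17.5 to 42.9 and 40.4 (1.33 ± 0.08), while the related DKK4 fell from 42.3 and 42.4 to 35.8 and 29.5. The membrane ubiquitin ligases RNF43 and ZNRF3, which remove Wnt receptors, rose together, RNF43 from 55.8 and 57.9 to 97.2 and 108 and ZNRF3 from 29.2 and 28.04 to 40.5 and 44.3. SOX4, a transcription factor, rose from 46.3 and 46.4 to 98.3 and 99.8 while SOX9 fell from 39.6 and 38.5 to 29.3 and 36.00 (-0.26 ± 0.09). The SOX9 call was lost without the first 72 h library (-0.12), the first control library (-0.24) or the second (-0.28). BMP4 rose from 108 and 118 to 213 and 222 and APCDD1, another Wnt inhibitor, from 253 and 239 to 357 and 363. PLAUR, the urokinase receptor, rose from 8.82 and 9.18 to 29.5 and 25.8 (1.52 ± 0.08).

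**Figure D2:**
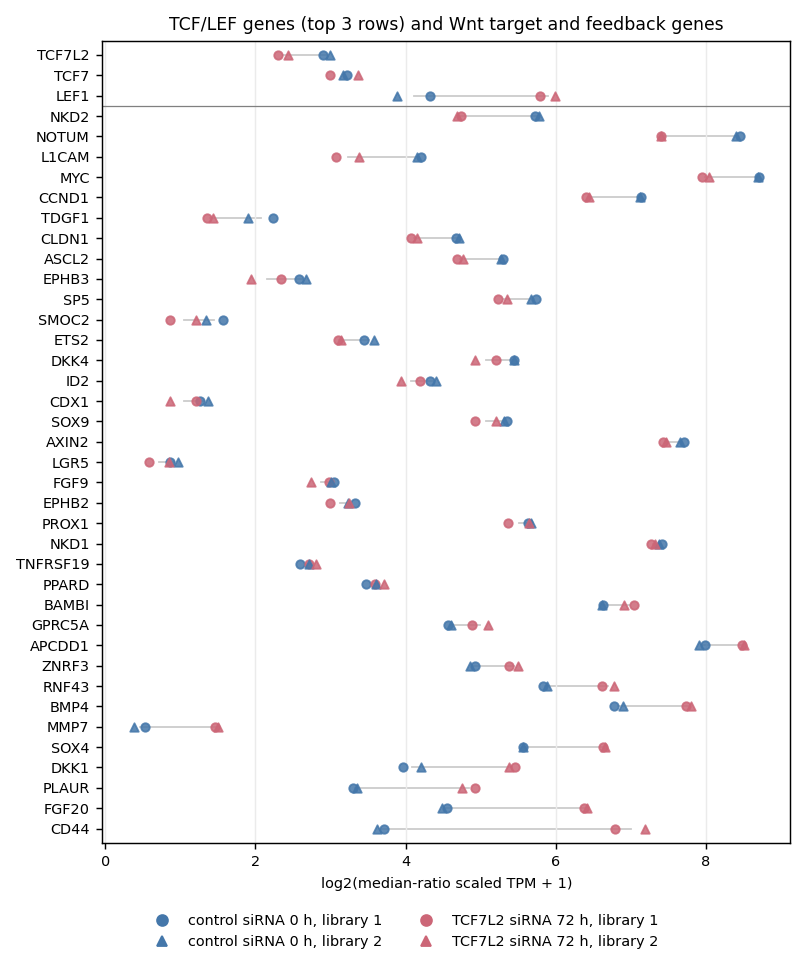
Log2(scaled TPM + 1) (x axis) of TCF7L2, TCF7 and LEF1 (top) and of the 36 kept Wnt target and feedback genes ordered by change (y axis). Circles are library 1 and triangles library 2, blue for control siRNA at 0 h and red for TCF7L2 siRNA at 72 h; grey lines join group means. NKD2 and NOTUM fell most, and FGF20 and CD44 rose most.

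The TCF/LEF core motif CTTTGAT was searched on both strands in RefSeq promoters (GRCh38.p14, 250 bases before to 50 after the gene start), which matched 9631 of the kept genes. It was in 1.3% of all of these, in 1.4% of the 293 promoters of genes 2-fold or more higher and in 0.8% of the 120 promoters of genes 2-fold or more lower. Of the 36 kept Wnt target genes, 20 had a window. AXIN2, MYC, CCND1, LGR5, NOTUM and ASCL2 were among those without one and were not searched. Among the 20, 1 held the motif, SP5, a transcription factor that fell from 52.5 and 50.05 to 36.7 and 39.9 (-0.41 ± 0.07). Its match begins 109 bases before the start. The stretch around it is shown as the Wnt target promoter that holds the motif, 5′ to 3′ on the gene's strand with the motif in capitals.
SP5, chr2:170715188-170715274, plus strand: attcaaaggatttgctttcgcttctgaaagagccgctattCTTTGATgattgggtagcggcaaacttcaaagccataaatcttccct

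The 15 largest rises, by a rule that asked for calls in both fits, no overlap and a mean of 5 TPM or more at 72 h, ran from ENC1, an actin-binding protein (from 2.99 and 2.57 to 44.8 and 42.97, 3.57 ± 0.11), to the transcription factor MEF2C (from 1.04 and 1.25 to 12.5 and 13.1, 2.68 ± 0.13). TM4SF4, a transmembrane protein, was nearly absent in the controls (0.302 and 0.047 at 0 h and 12.3 and 13.1 at 72 h). CEACAM6, a cell adhesion molecule of the carcinoembryonic antigen family, was listed at 0 in the second control library and reached 7.59 and 8.37 at 72 h. SOX2, a stem cell transcription factor, rose from 2.82 and 2.06 to 27.1 and 28.5. The 72 h libraries lay above both controls in all of these genes, as the rule required.

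ALDH1A1, which makes retinoic acid, rose from 0.387 and 0.421 to 9.79 and 8.29 (2.83 ± 0.12). COL17A1, a collagen of hemidesmosomes, rose from 0.208 and 0.225 to 7.91 and 6.65 (2.76 ± 0.15). SEMA3C, a secreted guidance protein, rose from 3.29 and 3.86 to 30.9 and 28.7 (2.75 ± 0.10). The homeobox gene HOXB8 went from 5.45 and 5.203 to 40.7 and 40.8, with the smallest SE of these genes (2.72 ± 0.07). CD68, a lysosomal glycoprotein used as a macrophage marker, rose from 3.35 and 2.01 to 21.03 and 23.9, and its control libraries differed most (2.69 ± 0.23). AMBN, an enamel matrix protein, rose from 0.585 and 0.496 to 10.4 and 11.01 (2.93 ± 0.10). By 48 h SEMA3C had a mean of 14.3 and HOXB8 of 14.9, both between the 0 h and 72 h means.

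**Figure D3:**
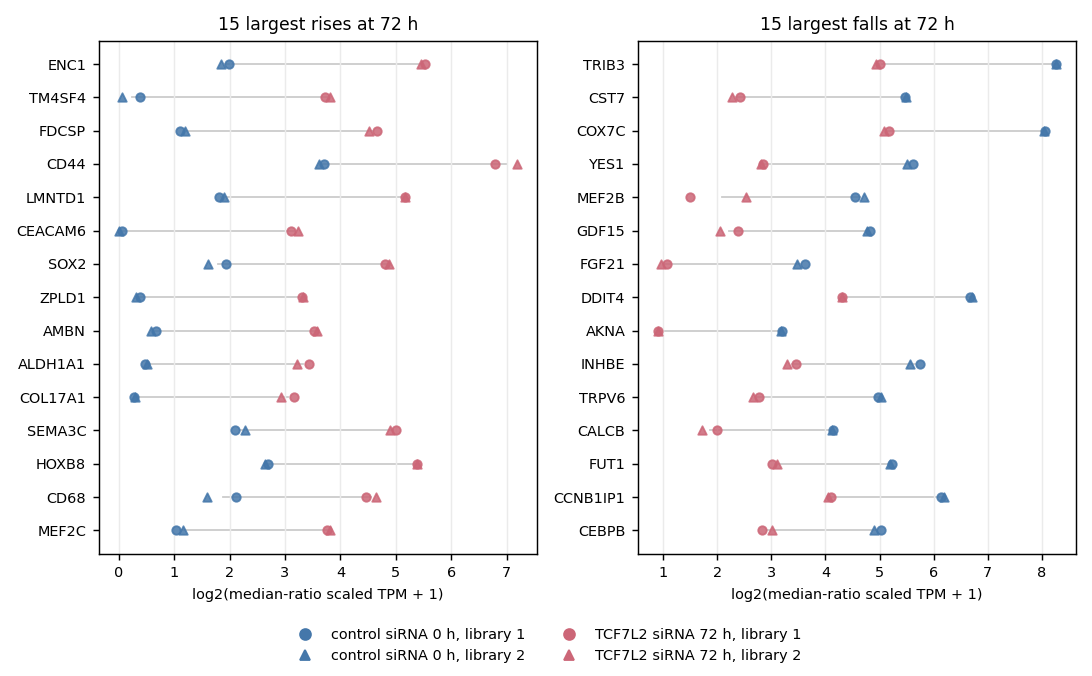
Log2(scaled TPM + 1) (x axis) of the 15 largest rises (left) and 15 largest falls (right) at 72 h. Circles are library 1 and triangles library 2, blue for control siRNA at 0 h and red for TCF7L2 siRNA at 72 h. The colours stand apart in every gene because the selection rule required it, and MEF2B has its 72 h libraries furthest apart.

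The 15 largest falls were chosen with a mean of 5 TPM or more at 0 h. TRIB3, a pseudokinase, fell most, from 308 and 306 to 31.3 and 29.4 (-3.30 ± 0.05), with means of 283 at 24 h and 196 at 48 h. CST7, a cystatin protease inhibitor, fell from 43.5 and 43.9 to 4.37 and 3.804 (-3.14 ± 0.08). YES1, a SRC-family kinase, fell from 48.03 and 44.8 to 6.17 and 6.02 (-2.74 ± 0.07), while of the other 6 kept genes of its family and CSK, SRC and CSK fell, LCK rose (0.93) and 3 had no call, with the same counts as deposited. SRC lost its call without the second 72 h library (-0.23) or the first control library (-0.32). COX7C, a cytochrome c oxidase subunit, fell from 265 and 263 to 34.9 and 33.1 (-2.92 ± 0.05). Of the 12 kept subunits, 4 rose and 4 fell (1 and 4 as deposited), against 25.8% and 26.2% of all genes. COX6B2, the testis form, rose from 2.77 and 2.95 to 17.9 and 21.3. MEF2B fell from 22.5 and 25.3 to 1.805 and 4.75, and its 72 h libraries lay furthest apart. The intestinal calcium channel TRPV6 fell from 30.3 and 31.6 to 5.85 and 5.36 (-2.27 ± 0.07).

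Further large falls were those of AKNA (from 8.19 and 8.05 to 0.878 and 0.870), the activin subunit gene INHBE (from 52.5 and 46.4 to 10.02 and 8.81), and CALCB, a calcitonin gene-related peptide (from 16.5 and 16.5 to 3.01 and 2.27). FUT1, which makes the H blood group antigen, fell from 36.5 and 35.7 to 7.04 and 7.63 and CCNB1IP1 from 69.8 and 72.2 to 16.2 and 15.6. In absolute TPM the largest gains were of TMSB4X, an actin-sequestering peptide (from 925 and 934 to 1538 and 1401), and KRT19 (from 468 and 455 to 851 and 798). CST1, a cystatin whose close paralogs make its value uncertain, rose from 61.6 and 67.2 to 341 and 376. ANXA1, a calcium-binding annexin, rose from 52.5 and 50.9 to 215 and 202, and B2M, the light chain of class I antigen-presenting molecules, from 150.0 and 151 to 300.4 and 283. The nuclear lamina gene LMNA rose from 143 and 145 to 283 and 285. Large losses included SLC1A5, a glutamine transporter (from 947 and 935 to 657 and 699), ASS1 of arginine synthesis (from 379 and 368 to 161 and 159.8) and ENO1 of glycolysis (from 1242 and 1226 to 925 and 852).

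Genes of the integrated stress response fell almost without exception. In this response, phosphorylation of eIF2 favours translation of the transcription factor ATF4, which switches on amino acid synthesis, transport and stress genes. Of 36 kept genes on the list, 35 fell and 0 rose, in the scaled and in the deposited values alike, and 20 fell 2-fold or more. The median log2 change was -1.08, against 0.003 over all genes, where 26.2% were lower. Without the first or without the second 72 h library, 33 of the 36 were lower. Summed over the list, TPM went from 4229 and 4194 to 2141 and 2149.9. The list was chosen with the fall of its leading genes known.

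ATF4 mRNA fell from 399.7 and 397 to 255 and 254 (-0.65 ± 0.04). Among transcription factors of the response, DDIT3, which encodes CHOP, fell from 37.2 and 39.2 to 10.96 and 12.6 (-1.62 ± 0.07), ATF5 from 113 and 108 to 26.1 and 28.3 (-1.98 ± 0.06) and CEBPB from 31.5 and 28.7 to 6.12 and 7.06 (-2.04 ± 0.08). ATF3 fell from 9.403 and 8.08 to 3.803 and 3.38 (-1.08 ± 0.12). The secreted factors GDF15 and FGF21 fell further, GDF15 from 27.4 and 26.3 to 4.22 and 3.12 and FGF21 from 11.3 and 10.2 to 1.11 and 0.945. DDIT4 and SESN2, inhibitors of mTORC1, fell from 101 and 104 to 18.9 and 18.7 and from 15.1 and 14.6 to 5.76 and 5.37. In none of these genes did the groups overlap. The same held after scaling for 6178 of the 6179 called genes and for 8972 of the 11894 kept genes.

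Enzymes and transporters of the response fell from high levels. ASNS, asparagine synthetase, fell from 405 and 413 to 228 and 228 (-0.84 ± 0.05). The serine synthesis enzymes PHGDH, PSAT1 and PSPH fell by 0.99, 1.08 and 0.73 on the log2 scale, and the mitochondrial folate enzymes SHMT2 and MTHFD2 fell by 0.77 and 1.14. CHAC1, which degrades glutathione, fell from 21.5 and 21.3 to 8.59 and 8.81 (-1.21 ± 0.07). Amino acid transporters covered a wide range, with SLC7A1 at -1.17 ± 0.08, SLC3A2 at -0.67 ± 0.05, SLC7A5 at -0.40 ± 0.06 and SLC7A11 at -0.22 ± 0.08. SLC7A11 lost its call when any 1 of the 4 libraries was left out, at -0.26 to -0.19. JDP2 was the 1 kept gene without a call, at 16.7 and 17.3 at 0 h and 15.2 and 17.02 at 72 h. Means at 24 and 48 h lay between the ends for ASNS (379.9 at 24 h and 383 at 48 h) and for DDIT3 (35.2 at 24 h and 26.00 at 48 h).

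**Figure D4:**
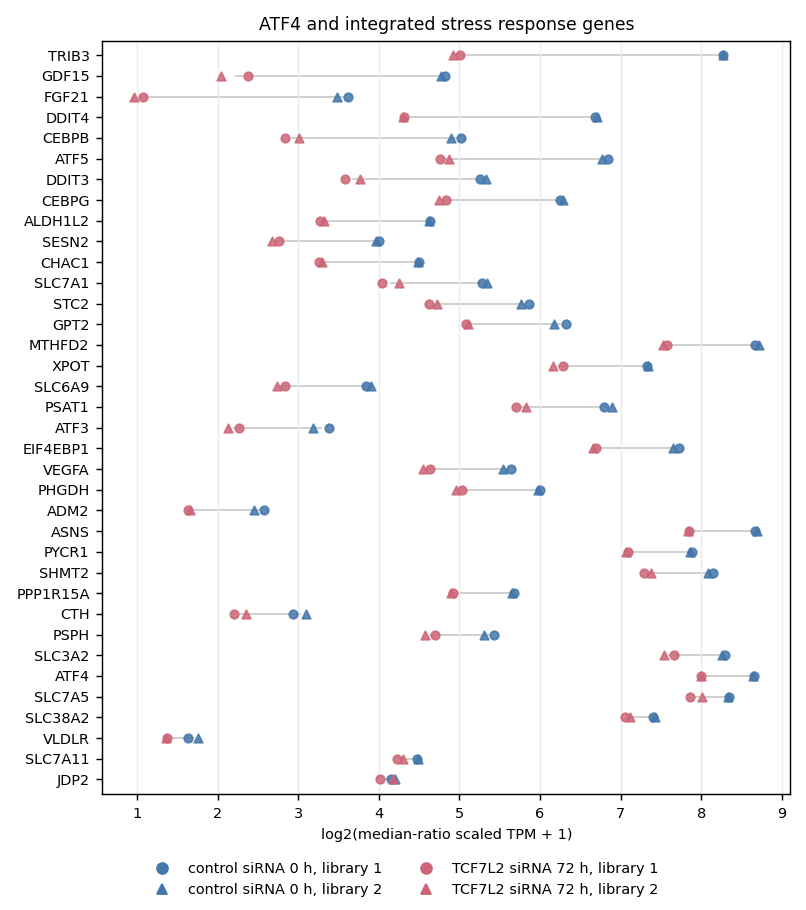
Log2(scaled TPM + 1) (x axis) of the 36 kept ATF4 and integrated stress response genes, ordered by change (y axis). Circles are library 1 and triangles library 2, blue for control siRNA at 0 h and red for TCF7L2 siRNA at 72 h; grey lines join group means. The red points lie left of the blue ones in all rows but JDP2, at the bottom, where they overlap.

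ATF4 binds C/EBP-ATF response elements, searched here as TGATGNAA on both strands in the same promoter windows. The letters were in 6 of the 28 windows of the list (21.4%), against 1.6% of the windows of all kept genes, 5.8% of those of genes 2-fold or more lower and 2.4% of those 2-fold or more higher. The 5.8% is 7 of 120 windows, and FGF21, CHAC1, ATF3 and SLC7A1 of the list are among the 7, so these groups overlap. The list was also chosen with the fall of its leading genes known, so its share is description only. This motif can share its first 4 bases with the end of the TCF/LEF core. A match is a description of the letters and not a shown binding site. Matches upstream of the start occurred in FGF21, CHAC1, ATF3 and ASNS, 54, 209, 191 and 68 bases before it, and these 4 stretches are shown because their genes fell together. All are from RefSeq on GRCh38.p14, 5′ to 3′ on the gene's strand, with the matching letters in capitals (reverse complement in FGF21 and CHAC1).
FGF21, chr19:48755430-48755517, plus strand: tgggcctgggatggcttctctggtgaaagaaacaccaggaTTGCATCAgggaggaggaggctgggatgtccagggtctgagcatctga
CHAC1, chr15:40953222-40953309, plus strand: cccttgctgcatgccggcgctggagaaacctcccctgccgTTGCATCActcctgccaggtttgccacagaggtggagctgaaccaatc
ATF3, chr1:212565176-212565263, plus strand: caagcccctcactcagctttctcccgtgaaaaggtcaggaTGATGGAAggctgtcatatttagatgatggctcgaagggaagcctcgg
ASNS, chr7:97872429-97872516, minus strand: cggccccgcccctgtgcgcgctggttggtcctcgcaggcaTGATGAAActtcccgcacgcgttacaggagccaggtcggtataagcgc

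Chaperones of the endoplasmic reticulum, another arm of the unfolded protein response, were called in both directions. Of 24 kept genes, 8 rose and 7 fell, and as deposited 0 rose and 6 fell, against 25.8% and 26.2% of all genes after scaling. CALR, calreticulin, rose from 282 and 270.3 to 430.0 and 412 (0.61 ± 0.04) and HSPA5, which encodes BiP, from 40.6 and 44.6 to 52.5 and 69.2 (0.49 ± 0.11). XBP1, a transcription factor of this arm, fell from 99.8 and 95.2 to 56.4 and 56.7 (-0.78 ± 0.05), as did its activator ERN1 (-0.69). The glucose transporter SLC2A1 fell from 320.4 and 319 to 90.9 and 87.7 (-1.83 ± 0.05), and VEGFA, an angiogenic growth factor induced by hypoxia, from 49.01 and 45.6 to 23.9 and 22.5. Of 35 kept glycolysis and hypoxia-responsive genes, 6 rose and 14 fell (2 and 17 as deposited). On log2(scaled TPM + 1) only SLC2A1 of these fell 2-fold or more, and VEGFA was just short of it at -0.998. EPAS1, a hypoxia-inducible factor subunit, rose from 2.16 and 2.61 to 12.8 and 12.04 (1.99 ± 0.17), while GAPDH was not called at 3161 and 3037 at 0 h and 3246 and 3152 at 72 h.

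Genes of DNA replication fell. Of 52 kept S-phase genes, 36 fell and 0 rose (41 and 0 as deposited), with a median of -0.38. TK1, thymidine kinase, fell from 31.98 and 32.8 to 15.3 and 15.9 (-1.01 ± 0.06), the largest change of the list. PCNA, the replication clamp, fell from 143 and 141 to 95.4 and 88.4 (-0.63 ± 0.05) and RRM1, a ribonucleotide reductase subunit, from 82.3 and 81.01 to 48.6 and 57.1 (-0.62 ± 0.08). The helicase subunits MCM2, MCM5, MCM6 and MCM7 fell, MCM6 most at -0.64, while MCM3 and MCM4 had no call. MCM2 and MCM5 lost theirs without the second 72 h library (-0.16 and -0.13), the first control library (-0.17 and -0.21) or the second (-0.21 and -0.14). Nucleotide synthesis enzymes went the same way, 16 of 22 lower and 0 higher (17 and 0 as deposited), among them CAD of pyrimidine synthesis (from 59.4 and 58.98 to 33.3 and 41.1). Leaving out any 1 of the 4 libraries left fewer genes of both lists called lower, fewest without the second control library.

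Mitotic genes fell more often than they rose. Of 53 kept G2/M genes, 20 fell and 4 rose (23 and 0 as deposited), with a median of -0.11. Here too fewer were called lower when any 1 of the 4 libraries was left out, fewest without the second control library. The checkpoint gene MAD2L1 fell from 35.8 and 37.6 to 15.9 and 15.8 (-1.16 ± 0.09), whereas the cyclins CCNB1 and CCNB2 and the kinase AURKA had no call, CCNB1 at 60.5 and 60.8 at 0 h and 63.4 and 56.7 at 72 h. MKI67, a proliferation marker, fell from 12.9 and 12.4 to 8.71 and 10.2 (-0.39 ± 0.11), a call lost without the first 72 h library (-0.29), the first control library (-0.37) or the second (-0.41). ANLN, a cytokinesis protein, rose from 63.5 and 61.2 to 87.97 and 89.1 (0.50 ± 0.05). Among 22 G1 cyclin, CDK, RB and E2F genes, 12 fell and 1, TFDP2, rose (13 and 0 as deposited), with CDK4 falling from 98.6 and 99.97 to 60.7 and 62.5 and E2F2 from 5.12 and 5.54 to 2.54 and 2.36. Of the 8 CDK inhibitor genes, 3 rose and 1 fell (2 and 2 as deposited, and 2 lower without the second 72 h library). CDKN2A rose from 27.03 and 27.6 to 53.5 and 65.8 (1.09 ± 0.09) and CDKN2B from 16.5 and 14.3 to 26.5 and 26.03, while CDKN1A had no call at 13.3 and 13.98 at 0 h and 14.9 and 14.5 at 72 h. The E2F site TTTGGCGC was in 13.6% of 44 S-phase promoters and in 1.1% of all.

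Genes of ribosome production were counted by type. Of 52 ribosome biogenesis factors, many of them known MYC targets, 35 fell and 2 rose (35 and 0 as deposited, and 1 higher without the first 72 h library or either control library), with DDX21, a nucleolar helicase, falling from 115 and 119 to 51.8 and 49.02 (-1.20 ± 0.05) and NOLC1 from 111 and 113 to 76.3 and 80.8. NPM1, the most abundant of them, had no call at 1382 and 1334 at 0 h and 1419 and 1294 at 72 h. Mitochondrial ribosomal protein genes fell in 44 of 78, and 5 rose (53 and 0 as deposited, and 3 higher without the first control library), MRPS23 from 43.05 and 44.5 to 26.1 and 20.6. For cytosolic ribosomal proteins the direction depended on the scaling: 37 of 79 were higher and 15 lower after it, with a median of 0.10, and as deposited 0 were higher and 9 lower, with a median of -0.12. The 15 lower became 9 without the second 72 h library or without either control library. RPS21 was lower in both, from 1236 and 1284 to 937 and 913, and so was RPS19, from 2842 and 2872 to 2407 and 2179. Many ribosomal protein genes have near-identical pseudogenes, so their values are uncertain.

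Genes of differentiated enterocytes and colonocytes passed the filter on low values in 21 of 32 cases, and 11 did not. Of the 21, 15 rose and 1 fell (14 and 1 as deposited), and 9 rose 2-fold or more, with a median of 0.80. The filter favours risers: 5 of the 15, below 1 TPM in both controls as deposited, passed through later libraries, and of the 14 kept genes that reached 1 TPM in at least 1 control and at least 1 library at 72 h, 10 rose and 1 fell. Without the first 72 h library 13 were higher and 2 lower. CEACAM1, CEACAM5 and CEACAM6, adhesion molecules of the carcinoembryonic antigen family that share sequence and are uncertain for that reason, rose, CEACAM1 from 2.27 and 2.49 to 10.5 and 13.5 (1.94 ± 0.12). ACSL5, an acyl-CoA synthetase of the intestine, rose from 3.56 and 3.75 to 23.3 and 23.5 (2.39 ± 0.09). KRT20, the keratin of mature colonocytes, rose from 0.491 and 0.580 to 2.88 and 3.22 and CDH17, liver-intestine cadherin, from 2.87 and 2.97 to 9.797 and 9.32. DPP4, a brush border peptidase, rose from 2.39 and 2.38 to 7.403 and 7.32, and the microvillus myosin genes MYO1A and MYO7B by 0.91 and 1.70. VIL1, villin, was already high and had no call (176 and 162 at 0 h and 173 and 160.0 at 72 h). The sodium exchanger SLC9A3 fell from 4.598 and 3.79 to 2.104 and 2.05, the 1 gene of the list lower at 72 h.

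Intestinal transcription factors moved both ways. CDX2 fell from 8.15 and 8.11 to 6.37 and 5.49 (-0.40 ± 0.10) and CDX1 was low without a call. HNF4A rose from 19.3 and 18.4 to 27.2 and 29.02 (0.55 ± 0.06) and KLF5 from 167 and 170.1 to 206 and 227. FOXA1 and FOXA2 rose and FOXA3 fell, FOXA1 from 2.06 and 2.38 to 5.897 and 5.63 and FOXA3 from 13.4 and 12.4 to 5.77 and 5.31. The list counted next also holds SOX2, the stem cell factor named above, whose rise was its largest (3.07 ± 0.11). Of 15 kept, 6 rose and 5 fell (3 and 6 as deposited), and 3 were lower without the first control library. Among 14 kept intestinal stem cell genes, 4 rose and 6 fell (3 and 7 as deposited). PTPRO, a receptor phosphatase of that list, rose from 1.18 and 1.06 to 6.77 and 7.28 (1.92 ± 0.11), as did CD44 and BMI1, while CDCA7 fell from 12.6 and 12.7 to 8.098 and 7.72.

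Junction and cytoskeletal genes rose more often than they fell. Of 30 kept (of 31 listed) tight junction, desmosome and adherens genes, 16 rose and 6 fell (8 and 6 as deposited). Of the 28 that reached 1 TPM as deposited in at least 1 control and 1 library at 72 h, 15 rose and 6 fell. The desmosomal cadherins DSC2 and DSG3 rose most, DSC2 from 3.08 and 3.397 to 21.9 and 21.5 (2.42 ± 0.08) and DSG3 from 1.64 and 1.59 to 11.4 and 11.2 (2.23 ± 0.09). Claudins went both ways, CLDN4 rising from 38.3 and 39.02 to 72.7 and 71.2 and CLDN7 falling from 134 and 127 to 71.9 and 74.9. CDH1, E-cadherin, rose from 11.6 and 11.8 to 15.3 and 19.5 (0.53 ± 0.12). Of 16 kept keratins (of 19 listed), 11 rose and 2 fell (4 and 2 as deposited), and KRT15 had the largest change among those above 5 TPM, from 9.89 and 11.1 to 19.1 and 22.9. Without the 2 kept keratins below 1 TPM in both controls as deposited, 9 of 14 rose and 2 fell. KRT18 rose by 0.20 after scaling and changed by -0.02 without a call as deposited.

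Mesenchymal genes passed the filter in 17 of 28 listed cases, and 11 did not. Of the 17, 11 rose and 3 fell (10 and 4 as deposited), with a median of 0.89. Here too the filter keeps low genes that rose and drops those that did not, and without the 1 kept gene below 1 TPM in both controls 10 of 16 rose, with a median of 0.74. VIM, vimentin, rose from 8.85 and 8.97 to 25.97 and 26.7 (1.46 ± 0.09) and the cadherin CDH11 from 11.1 and 11.8 to 39.7 and 36.1 (1.64 ± 0.07). FN1, fibronectin, rose from 2.44 and 2.24 to 5.67 and 6.85. ZEB1, a repressor of epithelial genes, rose from 2.200 and 2.04 to 3.504 and 3.92 whereas SNAI2, another such repressor, fell from 3.59 and 4.35 to 1.42 and 1.55 (-0.99 ± 0.11). S100A4 was the most abundant and fell from 308 and 326 to 245 and 227. The fibroblast marker list, 8 genes of which 3 were below 1 TPM in every library, summed to 12.3 and 10.2 TPM at 0 h and 50.6 and 45.0 at 72 h, most of it LUM, lumican (from 8.83 and 8.42 to 43.4 and 36.8). COL3A1 went from 0.009 and 0.019 to 2.54 and 2.34 and COL1A1 from 1.83 and 1.13 to 2.58 and 3.75, the latter without a call when the second 72 h library (0.55) or the second control library (0.54) was left out. The leukocyte list summed to 5.64 and 4.42 TPM and then 29.5 and 34.3, held by CD68 and by LYZ, lysozyme (from 1.87 and 2.02 to 7.66 and 8.97). Their part in the rise of mesenchymal genes was not tested, and in bulk RNA a change in the share of cells cannot be told apart from a change per cell.

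The same filter applies to the matrix lists. Of 29 kept (of 36 listed) collagen, laminin and integrin genes, 18 rose and 5 fell (10 and 5 as deposited). Without the 3 kept genes below 1 TPM in both controls as deposited, 15 of 26 rose and 5 fell. ITGB1, the common integrin beta chain, rose from 135 and 132 to 250.3 and 236 (0.86 ± 0.05) and ITGA3 from 9.42 and 8.11 to 21.5 and 19.2 (1.13 ± 0.10). Among laminin chains, LAMA3 rose from 31.03 and 31.3 to 41.9 and 39.9 and LAMB3 fell from 98.2 and 95.3 to 56.8 and 51.3. Of 10 kept (of 19 listed) urokinase and metalloproteinase genes, 8 rose and 0 fell (6 and 0 as deposited). Without the 1 kept gene below 1 TPM in both controls as deposited, 7 of 9 rose and 0 fell. TIMP1, an inhibitor of these proteases, rose from 35.1 and 36.1 to 70.1 and 73.8 (0.99 ± 0.05), the protease MMP14 from 3.17 and 3.48 to 6.97 and 7.11, and the urokinase gene PLAU from 1.09 and 1.15 to 3.11 and 3.13.

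Signalling genes of other pathways were called as follows, and the same filter applies to them and to the lists below. For BMP and TGF-beta, 18 of 31 kept genes (of 39 listed) rose and 3 fell, and as deposited 6 rose and 6 fell. Without the 1 kept gene below 1 TPM in both controls as deposited, 17 of 30 rose and 3 fell. TGFB2 rose from 0.661 and 0.580 to 5.598 and 5.53 (2.02 ± 0.11), while ID1, a direct BMP target, fell from 94.5 and 91.9 to 47.8 and 43.9 (-1.01 ± 0.06). Notch pathway genes fell in 10 of 26 cases and rose in 5 (10 and 1 as deposited). The Notch targets HES5 and HEYL fell, HES5 from 12.4 and 13.02 to 2.83 and 3.88 (-1.67 ± 0.11) and HEYL from 3.92 and 3.63 to 0.560 and 0.870 (-1.48 ± 0.13), and the receptor NOTCH1 fell from 23.7 and 23.2 to 10.1 and 11.2 (-1.07 ± 0.07). HES1, a Notch target of the gut, had no call at 3.14 and 3.73 at 0 h and 4.33 and 4.201 at 72 h. Among growth factors, HBEGF fell from 11.05 and 9.84 to 2.94 and 2.63 (-1.59 ± 0.10) and TGFA from 43.7 and 43.3 to 25.3 and 24.1, and the receptor gene ERBB3 rose from 18.2 and 18.4 to 38.4 and 32.8 (0.92 ± 0.09). YAP1, the effector of the Hippo pathway, fell from 51.7 and 53.8 to 23.5 and 25.2 (-1.09 ± 0.06), while 5 of 24 genes of its list rose and 6 fell (4 and 6 as deposited), against 25.8% and 26.2% of all genes.

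Interferon-stimulated genes rose in 14 of 25 kept cases (of 35 listed) and 1 fell (8 and 1 as deposited), at low levels. Of the 23 that reached 1 TPM as deposited in at least 1 control and at least 1 library at 72 h, 13 rose and 1 fell. ISG20, a nuclease, rose from 14.1 and 14.5 to 37.1 and 36.02 (1.30 ± 0.06) and the sensor gene OAS1 from 0.793 and 0.983 to 3.95 and 2.65, but ISG15 had no call at 14.6 and 13.1 at 0 h and 16.5 and 12.3 at 72 h. Of 20 kept (of 29 listed) NF-kB target and chemokine genes, 12 rose and 2 fell (7 and 3 as deposited, and 1 lower without the first 72 h library or either control library), with CXCL8, interleukin-8, rising from 1.51 and 1.39 to 5.45 and 5.72 (1.43 ± 0.11). Lysosomal genes rose in 22 of 41 cases and fell in 4 (9 and 4 as deposited, and 2 lower without the first control library), NPC2, a cholesterol carrier, from 22.1 and 21.2 to 52.5 and 43.2 (1.10 ± 0.09). For cholesterol synthesis and sterol regulation the call depended on the scaling, 12 of 32 higher and 5 lower after it and 3 and 8 as deposited. The 5 lower became 9 without the first 72 h library and 2 without the first control library. ABCA1, a cholesterol exporter, rose from 1.23 and 1.24 to 5.37 and 5.12 (1.48 ± 0.10). Of 20 kept p53 targets, 5 rose and 9 fell (4 and 9 as deposited), and of 16 BCL2-family genes 3 rose and 5 fell (2 and 8 as deposited), with 2 lower without the second 72 h library and 3 without the first control library. BCL2L1, which encodes BCL-XL, fell from 109 and 112 to 58.3 and 58.3 (-0.91 ± 0.04) and the pro-apoptotic BCL2L11, or BIM, rose from 8.497 and 7.39 to 16.96 and 17.2 (1.02 ± 0.12).

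Of 51 kept subunits of respiratory complexes I, II and III, 14 rose and 20 fell (2 and 21 as deposited), and 9 rose without the second control library. NDUFA9 of complex I fell from 139 and 146 to 89.4 and 76.6 (-0.78 ± 0.07), while UQCRB of complex III rose from 132 and 131 to 208 and 193 (0.60 ± 0.05). Fatty acid synthesis and acyl-CoA synthetase genes rose in 6 of 25 cases and fell in 6 (1 and 7 as deposited), against 25.8% and 26.2% of all genes. SCD, the stearoyl-CoA desaturase of that list, fell from 110.4 and 111 to 56.5 and 58.4 (-0.93 ± 0.04). Of 24 kept RAS-MAPK feedback genes, 10 rose and 6 fell (5 and 6 as deposited). SPRY1, an inhibitor of this pathway, rose from 3.07 and 3.37 to 7.67 and 6.97 and ETV4, an ETS transcription factor, fell from 71.5 and 69.7 to 35.03 and 37.8. MLXIPL, a glucose-responsive factor of the MYC network, fell from 28.4 and 30.4 to 11.2 and 12.1 (-1.26 ± 0.09).

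Of 20 kept CTCF and cohesin genes, 7 rose and 9 fell, and as deposited 0 rose and 9 fell. The 7 risers became 3 without the second 72 h library and 2 without the second control library, which also left 5 lower. CTCF, an insulator protein, fell from 20.4 and 19.6 to 14.9 and 15.9 (-0.36 ± 0.07) and PDS5A, a cohesin regulator, from 38.9 and 39.2 to 23.1 and 25.01. Of 14 kept Argonaute and small RNA genes, 5 rose and 4 fell (1 and 4 as deposited), and 3 rose without the second 72 h or the second control library. AGO1 fell from 11.9 and 12.1 to 5.96 and 6.76 (-0.82 ± 0.09), while TNRC6A, a partner of Argonaute proteins, rose from 10.6 and 9.26 to 21.8 and 19.7 (0.99 ± 0.09). Neuroendocrine and secretory peptide genes rose in 7 of 10 kept cases (of 27 listed) and fell in 3 (5 and 3 as deposited), with NTS, neurotensin, rising from 0.954 and 0.571 to 9.71 and 9.07 (2.57 ± 0.14).

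AP-1, a dimer of FOS and JUN proteins, binds TGACTCA. That motif was in 10.9% of the 293 promoters of genes 2-fold or more higher at 72 h, in 4.2% of the 120 of genes 2-fold or more lower and in 3.0% of all kept genes' promoters. AP-1 genes themselves went both ways, with 8 of 23 kept AP-1 and immediate early genes rising and 8 falling (7 and 10 as deposited). JUN rose from 9.21 and 9.02 to 14.9 and 15.2 (0.67 ± 0.07) and FOSL1 from 22.6 and 22.3 to 30.7 and 40.4 (0.63 ± 0.11), while FOS had no call at 6.31 and 6.47 at 0 h and 5.55 and 6.32 at 72 h. Shown, as examples chosen after their values were seen, are 3 strongly rising genes with a match upstream of the start: LMNTD1 (from 2.502 and 2.72 to 35.05 and 35.03), CD68, and ECM1, an extracellular matrix protein (from 0.906 and 0.674 to 9.36 and 10.6). The matches, as reverse complements in capitals, begin 118, 100 and 78 bases before the start, and the stretches are from RefSeq on GRCh38.p14, 5′ to 3′ on the gene's strand.
LMNTD1, chr12:25648650-25648736, minus strand: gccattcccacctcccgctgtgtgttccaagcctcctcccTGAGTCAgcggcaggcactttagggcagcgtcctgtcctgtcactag
CD68, chr17:7579498-7579584, plus strand: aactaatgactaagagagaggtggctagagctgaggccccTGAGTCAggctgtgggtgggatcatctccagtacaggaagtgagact
ECM1, chr1:150507991-150508077, plus strand: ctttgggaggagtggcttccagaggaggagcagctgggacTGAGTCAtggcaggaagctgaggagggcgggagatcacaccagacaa

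**Figure D5:**
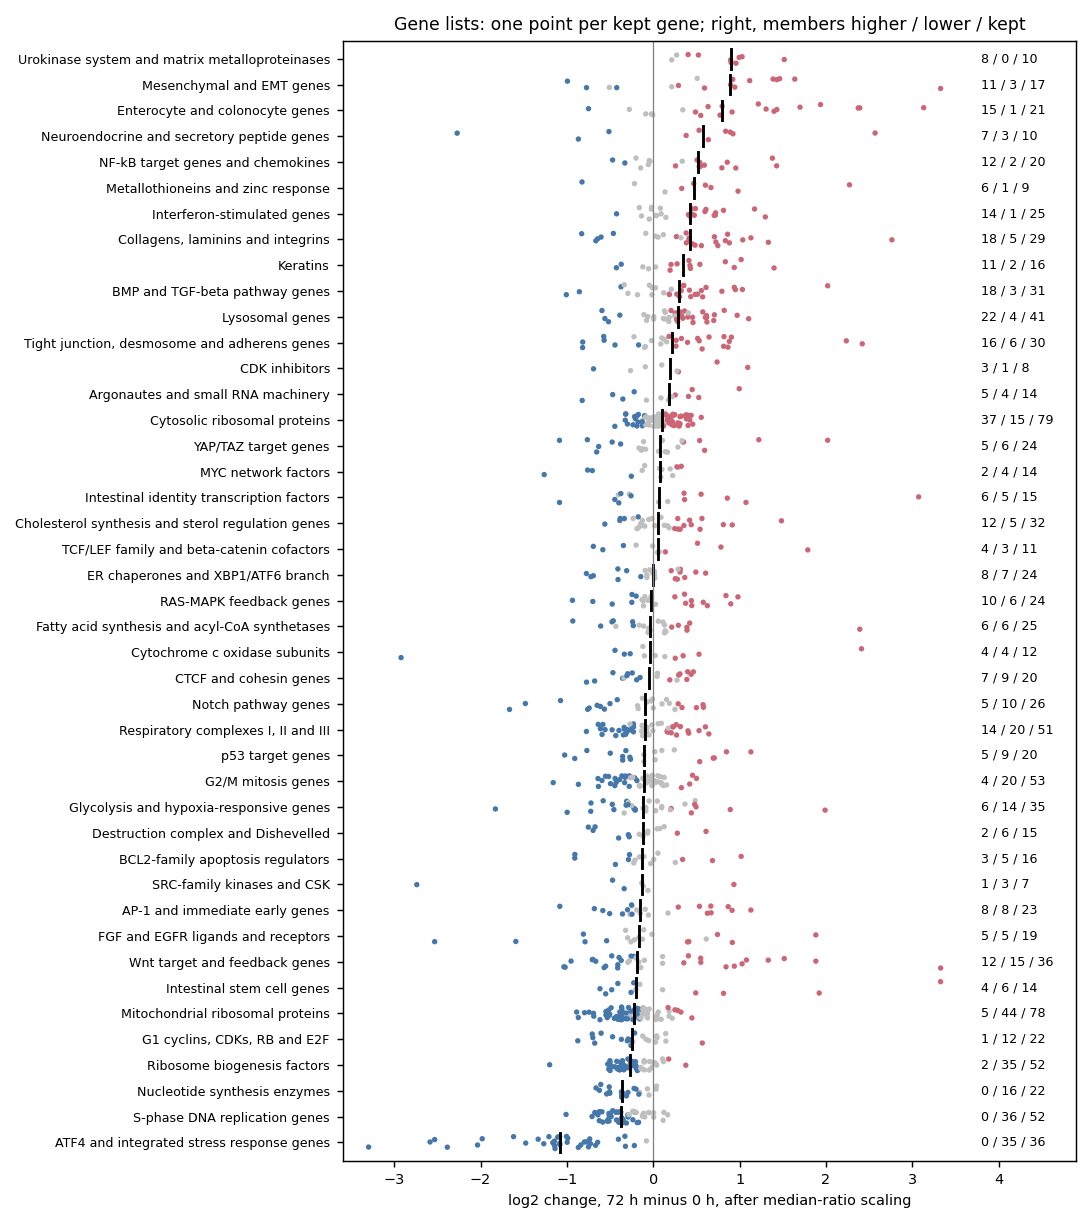
Log2 change from 0 h to 72 h after scaling (x axis) for the kept genes of each list with 5 or more (y axis, ordered by median). Points are genes, red where higher and blue where lower by the test and grey where not called; black bars are medians, and the numbers give members higher, lower and kept. The ATF4 list lies lowest, with a median of -1.08, and the urokinase list highest.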

How the data were processed

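The labels' protocols describe sequencing of SW480 total RNA depleted of ribosomal RNA. The authors deposited 1 table of TPM per gene symbol, made with RSEM after FastQC, Trimmomatic, STAR, Picard and SAMtools on hg19, per the submitters' processing notes. Versions, annotation and strand setting are not stated in them, so overlapping genes may share reads. TPM keeps no read depth: the depth is unknown and no counting interval was possible, so precision comes from the 2 libraries a group.

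From the deposited TPM, a gene was kept at 1 TPM or more in 2 or more libraries. Each library was divided by its median-ratio factor, set on 11876 genes, and log2(scaled TPM + 1) was fitted with limma 3.58.1 in R 4.3.3 on all 8 libraries in 4 groups, with a mean-variance trend, 4 residual and 5.41 prior degrees of freedom, and a median SE of 0.0912. Tests were two-sided, with Benjamini-Hochberg adjustment over all kept genes at 0.05. On TPM as deposited the median SE was 0.162 and the prior degrees of freedom were infinite, so a gene whose libraries lay apart received no larger SE. The fit was tested on data with known answers before use.

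Named genes were TCF7L2 and its family, the 15 largest rises and falls called in both fits with a mean of 5 TPM or more in the higher group and no overlap, the 10 largest gains and losses in TPM, and up to 6 members a list in each direction with the smallest p, with all members of lists of 15 or fewer. Other genes and the promoters shown were chosen after their values were seen. Members, lists and tests were chosen with earlier results of these data known. Lists are described by counts and medians, without a set test. Mitochondrially encoded genes, replication-dependent histones and most aminoacyl-tRNA synthetases are not analysed here. Promoter sequences are RefSeq's on GRCh38.p14, matched by symbol. Alternatives were other scalings, pseudocounts, filters, variance models and thresholds, a fit to the 4 libraries alone, a replicate block, and leaving out each library.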

Additional observations from a re-analysis of the deposited data

How the results depend on the processing

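The number of genes called higher depended on the scaling: 3064 after median-ratio scaling and 1253 on TPM as deposited, with 1242 called in both, while the number lower was 3115 and 3715. Requiring a 2-fold change left 541 genes, 380 higher and 161 lower, by its own construction. Of the gene lists, 20 had more members lower than higher, 31 did as deposited and in the calls shared by both fits, and 8 with the 2-fold minimum. As deposited, the log2 changes of CTNNB1 (-0.08), EBNA1BP2 (-0.04), MRPS2 (-0.04), HK1 (-0.01), SMC1A (-0.03) and KRT18 (-0.02) changed sign and had no call. Leaving out each of the 4 libraries in turn, which leaves 1 library in a group whose spread is taken from the other groups, gave 4925 to 5684 genes, 2469 to 2804 higher and 2456 to 2880 lower, 20 to 23 lists, and -0.65 to -0.52 for TCF7L2. A call with the same sign in all 4 of these fits was made for 4149 genes. The replicate numbers are not said to pair libraries, and the differences between libraries 1 and 2 correlated at 0.024 between 0 h and 72 h and at -0.085 to 0.106 over all pairs of times. With the replicate block 6141 genes were called and TCF7L2 was -0.58. The other alternatives kept the counts within 1.5 times and the fall of TCF7L2 past the threshold. TPM holds no depth, so what depth limits could not be measured.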

Other observations

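These runs of neighbouring genes were picked out after seeing the values and are given as a description. Among kept genes in the order of the RefSeq annotation, a stretch of chromosome 4 held 7 neighbours that each rose 2-fold or more, CSN1S1, HTN3, HTN1, ODAM, FDCSP, CSN3 and AMBN, which include milk casein, saliva histatin and tooth enamel protein genes. All were low at 0 h: CSN1S1 rose from 0.255 and 0.103 to 3.62 and 3.56 TPM and CSN3 from 0.255 and 0.543 to 3.27 and 4.53. The filter favours such a run. CSN1S1, CSN3 and AMBN, below 1 TPM in both controls, passed it through later libraries, and neighbours that did not pass are not counted. HTN1 and HTN3 are near-identical, so their values are uncertain. On chromosome 17 the homeobox genes HOXB5, HOXB6, HOXB7 and HOXB8 rose together, HOXB6 from 16.2 and 17.5 to 52.4 and 59.04 and HOXB7 from 19.2 and 20.8 to 73.03 and 77.7. Around FGF21 on chromosome 19, RASIP1, IZUMO1 and FUT1 fell 2-fold or more with it, RASIP1 from 5.004 and 4.202 to 0.560 and 0.547 and IZUMO1 from 6.34 and 5.896 to 1.004 and 0.771.

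By chromosome, the share of kept genes called lower was 36.0% on chromosome 20 and 35.3% on chromosome 22, against 26.2% over all, and the share called higher was 18.4% on chromosome 16 and 32.1% on chromosome 18, against 25.8%. These are the extreme shares over the autosomes and X, picked after seeing the values. Chromosome 18, with 159 kept genes, also had 29.6% called lower. All these shares are after scaling, and shares as deposited were not computed by chromosome. TCF4, a gene on chromosome 18 that encodes an E-box binding protein and is not the TCF4 protein made from TCF7L2, rose from 2.14 and 2.84 to 9.16 and 9.63 (1.58 ± 0.12).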
